A study of Mus musculus with 36 samples.

Results

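The genes described here encode 9 pore-forming subunits of ionotropic glutamate receptors: the AMPA receptor subunits Gria1, Gria2, Gria3 and Gria4 and the NMDA receptor subunits Grin1, Grin2a, Grin2b, Grin2d and Grin3a. They were chosen by symbol, and each was found on 1 row of a count table of 16614 genes. The table holds 36 libraries in 12 groups of 3, made from whole brains of WT (C57BL/6) and FMR1-KO mice, called FMR1 KO below, at postnatal day 5, with 10 brains used. Ribosome protected fragments (RPFs), the stretches of mRNA that a ribosome shields from nuclease, were sequenced from the pellet of a sucrose gradient, labelled Granule, and from fraction 5/6, labelled Polysome. RNA-seq was made from whole brain homogenate. Each of the 3 library types was made for both genotypes in 2 preparations. The standard nuclease preparation (labelled M-protocol) used 10 mM MgCl2 and digestion at room temperature with RNase adjusted to the amount of RNA, and the low nuclease preparation (labelled control) used 2.5 mM MgCl2 and digestion in the cold. The labels name no Cre line, transgene or drug. The study's methods speak of separate biological preparations, but the labels do not tie the 3 libraries of a group to animals, and p-values measure the spread between these libraries.

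AMPA receptors are tetramers of the Gria products that carry most fast excitatory transmission. The Gria2 subunit, once its mRNA is edited, makes them impermeable to calcium. NMDA receptors pair the obligatory Grin1 subunit with Grin2 or Grin3 subunits, and the Grin2b and Grin2d subunits prevail early in postnatal life, before Grin2a rises. FMRP, the protein missing in fragile X syndrome, binds mRNAs in neurons, and the mRNAs of several of these subunits are known as its targets. The pellet is studied because stalled ribosomes, which occur in RNA granules of neurons, are enriched in it. The study saw ribosome clusters in fraction 5/6 as well as in the pellet. It calls it unclear whether the pellet holds nothing but stalled ribosomes of granules, and whether all stalled ribosomes reach it.

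The depth available for these genes was small in the RPF libraries. In the standard preparation the 12 RPF libraries held 6765065 to 40174168 counts, of which a single gene, Cdk8, took 36.7% to 63.4%, and the 9 subunits together had 757 to 3414 counts. The 6 RNA-seq libraries of that preparation held 112249206 to 147216378 counts, with 52505 to 69865 on the subunits. The 10 genes with most counts took 45.4% to 71.3% of the standard RPF libraries and 5.0% to 7.2% of the RNA-seq libraries, so levels are given below in CPM (counts scaled to a common library total) after TMM normalization, which sets libraries against their typical gene and not against their total. With low nuclease 3 of the 6 RNA-seq libraries, namely replicate 2 of both genotypes and replicate 3 of the FMR1 KO, had 82.4% to 85.0% of counts on 10 genes. Fmr1 itself was lower in the FMR1 KO by 1.90 ± 0.10 (log2, SE) in RNA-seq, with 16.4 to 18.1 CPM without Cdk8 against 60.6 to 71.9 CPM in WT. The library labelled WT fraction 5/6 replicate 3 in the standard preparation had 3.17 CPM of Fmr1, below every FMR1 KO library of that fraction, while the other 2 WT libraries had 100.1 and 68.6 CPM. Comparisons that use this library are also given without it. All 6 neuronal markers checked (Tubb3, Rbfox3, Snap25, Syt1, Map2 and Stmn2) were detected in every group, and their sum was 5324 to 11313 CPM over the standard libraries, whereas the liver genes that were in the table, 2 of the 3 checked, summed to at most 1.89 CPM.

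On GRCm38, with gene models of GENCODE M21, the AMPA subunit genes lie on chromosome 11 from 57011387 to 57330244 on the plus strand (Gria1, ENSMUSG00000020524), on chromosome 3 from 80681450 to 80802835 on the minus strand (Gria2, ENSMUSG00000033981), on chromosome X from 41400854 to 41678601 on the plus strand (Gria3, ENSMUSG00000001986) and on chromosome 9 from 4417896 to 4796234 on the minus strand (Gria4, ENSMUSG00000025892). The NMDA subunit genes are all on the minus strand. Grin1 (ENSMUSG00000026959) lies on chromosome 2 from 25291181 to 25319187 and Grin2a (ENSMUSG00000059003) on chromosome 16 from 9567898 to 9995560. Grin2b (ENSMUSG00000030209) lies on chromosome 6 from 135713233 to 136173511. Grin2d (ENSMUSG00000002771) lies on chromosome 7 from 45831883 to 45878378, and Grin3a (ENSMUSG00000039579) on chromosome 4 from 49661611 to 49845744. Their coding sequences are of similar length, 2779 to 2943 bases over the AMPA subunits and Grin1 and 3405 to 4447 bases over the other NMDA subunits. The exons differ far more, from 6043 bases in Gria1 to 24842 in Grin2b, so that coding sequence makes up 17.9% of the exonic length of Grin2b and 59.6% of that of Grin2d.

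Per kilobase of coding sequence, Grin2b was the most abundant of the 9 mRNAs in RNA-seq of WT brain, at 46.2 ± 9.02 CPM per kilobase (CPM without Cdk8, SD, n = 3), and its libraries did not overlap with those of any other subunit. Gria1 followed at 23.2 ± 4.69 and Gria2 at 20.4 ± 3.26, whose ranges overlapped. Grin3a, which forms receptors with low calcium permeability, had 15.9 ± 1.38. Gria4 at 11.3 ± 2.09 and Grin2d at 10.9 ± 0.46 overlapped with each other. Grin1 at 8.85 ± 0.80 overlapped with Grin2a at 7.02 ± 1.69, and Grin2a in turn with Gria3 at 5.09 ± 1.00. Per kilobase of all exons Gria1 came first at 10.9 ± 2.2, ahead of Grin2b at 8.27 ± 1.61. In the pellet of WT brain the order per kilobase of coding sequence was different. Gria2 led at 14.9 ± 8.15 CPM per kilobase of coding sequence, then Grin1 at 11.9 ± 6.02, Gria1 at 8.22 ± 2.71 and Grin2b at 7.81 ± 3.07, all of which overlapped with their neighbours. Grin2a was the lowest at 0.69 ± 0.22 and lay below every other subunit without overlap. In the pellet of the FMR1 KO Gria2 was again first, at 14.0 ± 4.68, and Grin2a last, at 0.70 ± 0.25. Per kilobase of all exons Gria1 came first in the pellets too, at 3.86 ± 1.27 in WT and 4.38 ± 1.5 in the FMR1 KO, so the change of the first subunit depends on the length used.

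**Figure D1:**
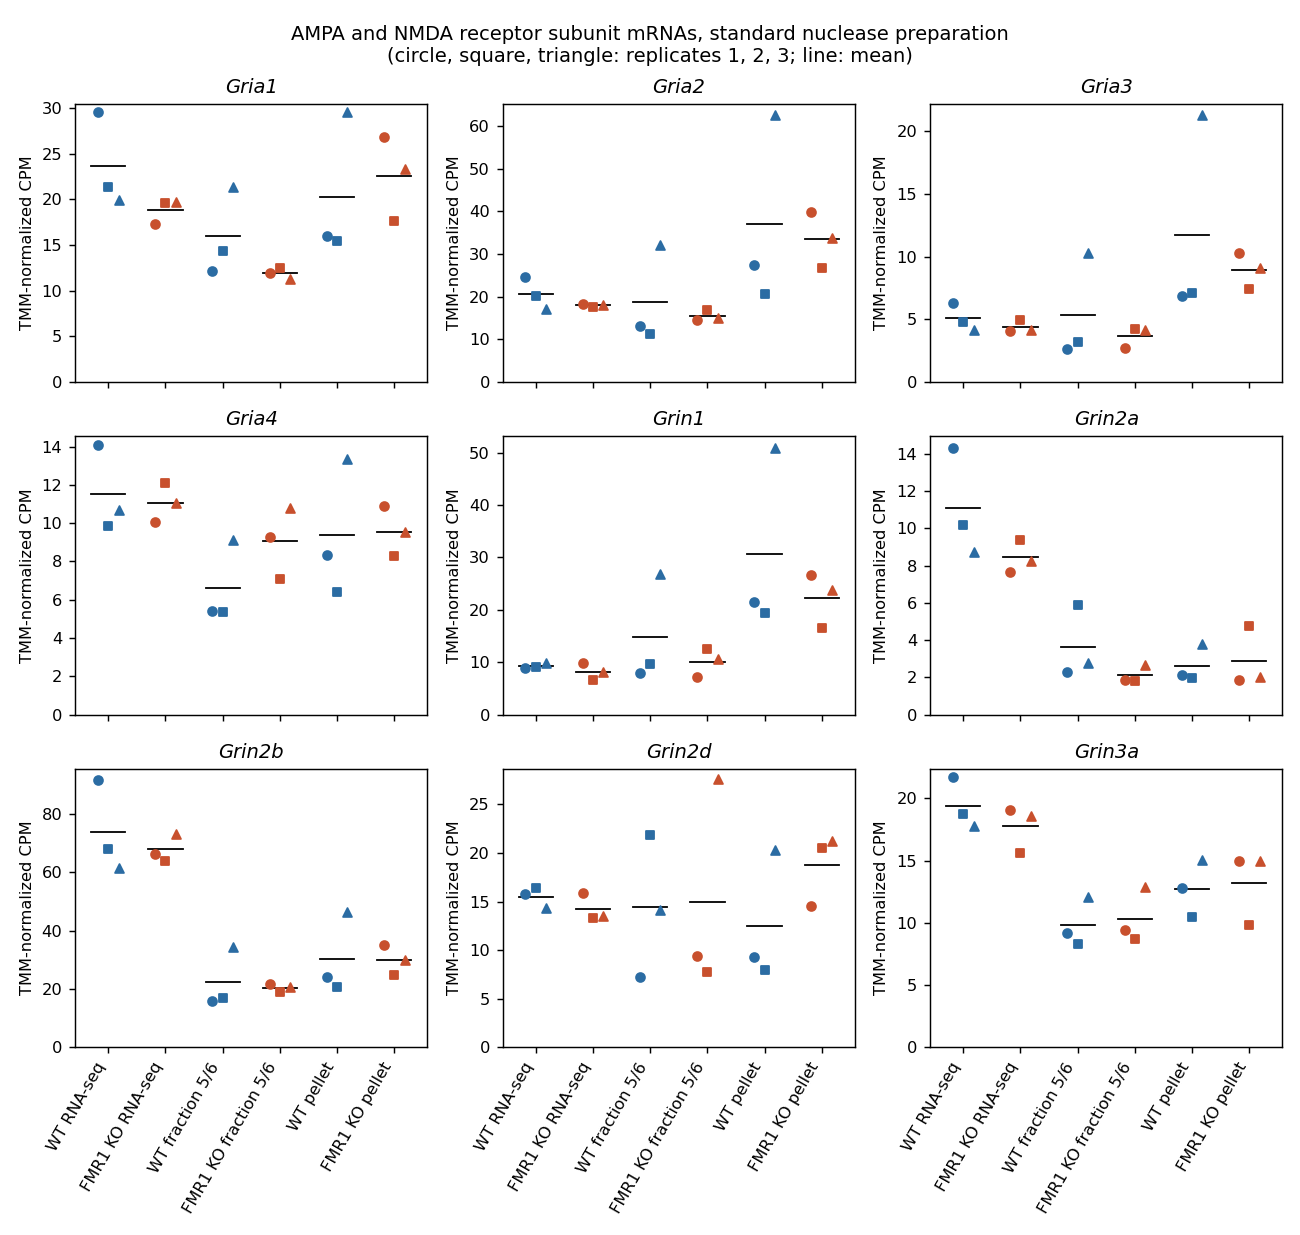
TMM-scaled CPM (y axes, from 0, one scale per gene) of the 9 subunits in the 18 libraries of the standard preparation, by library type and genotype, with circles, squares and triangles for replicates 1, 2 and 3 and a line at the mean of 3 libraries. Grin1 is higher in both pellets than in RNA-seq, Grin2b and Grin2a are lower in all RPF groups than in RNA-seq, and the replicate 3 libraries of WT pellet and WT fraction 5/6 lie above the other 2 for most subunits.

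Whether loss of FMRP changed the mRNA level of the subunits was asked first. No subunit passed the threshold between FMR1 KO and WT in RNA-seq (edgeR's quasi-likelihood test, Benjamini-Hochberg adjusted p under 0.05 over 16334 genes, of which 0.0735% were called). All 9 estimates were below 0, with a median log2 fold change of -0.19 beside 0.00 over all genes tested. Grin2a was lowest, with 39.3, 27.9 and 25.3 CPM without Cdk8 in WT and 21, 24.8 and 23.1 in the FMR1 KO. The groups did not overlap on this scale but did in TMM-scaled CPM, where FMR1 KO replicate 2 had 9.39 and WT replicate 3 had 8.74. Its log2 fold change was -0.40 (95% interval -0.78 to -0.01, adjusted p = 0.999). Gria1 had 81.1, 58.5 and 57.7 CPM in WT and 47.5, 51.5 and 55.2 in the FMR1 KO, also without overlap, with a log2 fold change of -0.33 (95% interval -0.66 to -0.0012, adjusted p = 0.999). These were the 2 subunits with an unadjusted p under 0.05, a level that 2.58% of all genes reached. The other 7 estimates lay between -0.07 for Gria4 and -0.21 for Gria3. In RNA-seq of the low nuclease preparation 5 of the 9 estimates were above 0, with a median of 0.045 and Grin2a at 0.37 (adjusted p = 0.859). In whole brain, fewer cells that express a gene and less of its RNA per cell cannot be told apart.

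RPFs of the subunits in the pellet, the measure called abundance, did not pass the threshold between genotypes either, in a comparison where 0.015% of 13370 genes did. The estimates ran from -0.45 for Grin1 to 0.60 for Grin2d, 5 above 0 and 4 below. Leaving out 1 library put Grin1 between -0.70 and 0.13, Gria2 between -0.43 and 0.49 and Gria3 between -0.67 and 0.36. Less the Sec1 count, a correction described further on, Grin2d had 9.98 to 14.2 CPM in WT pellet and 8.62 to 14.0 in that of the FMR1 KO, which overlap. Their intervals were wide. That of Gria2 ran from -1.14 to 0.87 and that of Grin2b from -0.79 to 0.76 on the log2 scale, and neither a rise nor a fall within these bounds can be told from no change. For Grin3a the interval was narrower, from -0.43 to 0.56. In fraction 5/6 the estimates ran from -0.77 for Grin2a to 0.43 for Gria4, and 0% of 13075 genes were called. Without the library labelled WT fraction 5/6 replicate 3, 7 of the 9 estimates in fraction 5/6 were above 0 in place of 3, with Gria2 at 0.34 in place of -0.29, Gria3 at 0.33 in place of -0.57, Grin1 at 0.20 in place of -0.56 and Grin2b at 0.30 in place of -0.15, and the highest was Gria4 at 0.73 (unadjusted p = 0.0218, adjusted p = 0.741 in edgeR). The change of the pellet to RNA-seq ratio with genotype, called occupancy, ran from -0.27 for Grin1 to 0.72 for Grin2d, with 0.0672% of 16372 genes called. The change of the pellet to fraction 5/6 ratio, called enrichment, ran from -0.39 for Gria4 to 0.90 for Grin2a, with 0% of 13679 genes called and 8 of the 9 estimates above 0. Without the same WT fraction 5/6 library 3 of the 9 were above 0, and they ran from -0.75 for Gria3 to 1.02 for Grin2a, with Grin1 at -0.69, Gria2 at -0.51, Grin2b at -0.35 and Grin3a at -0.20 (adjusted p of 0.886 or more). These 5 genes were above 0 with it, at 0.0031 for Grin3a to 0.17 for Gria3. None of the 9 subunits passed in either, and with all standard libraries the unadjusted p was under 0.05 for none of them in the pellet, in fraction 5/6, in occupancy or in enrichment. DESeq2 also called none of the 9 in these 5 comparisons. Over all genes, edgeR gave an unadjusted p under 0.05 for 590 in fraction 5/6 and 769 in enrichment, and DESeq2 called 12 higher and 12 lower in RNA-seq, 46 and 20 in the pellet, 3 and 77 in fraction 5/6, 36 and 27 in occupancy and 38 and 3 in enrichment. In the low nuclease pellets all 9 estimates were below 0, from -0.06 for Grin2d to -2.54 for Grin2a, with adjusted p of 0.907 or more. With low nuclease, unadjusted p under 0.05 occurred for Grin2a in the pellet (0.017), in occupancy (0.0070) and in enrichment (0.0035) and for Grin2d in fraction 5/6 (0.048) and in enrichment (0.040), with edgeR's adjusted p of 0.580 or more. In that fraction 5/6, FMR1 KO replicate 1 had 42157 Grin2d counts, with Sec1 counts at 99.3% of them. The other libraries of the fraction had 712 to 2538 Grin2d counts.

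**Figure D2:**
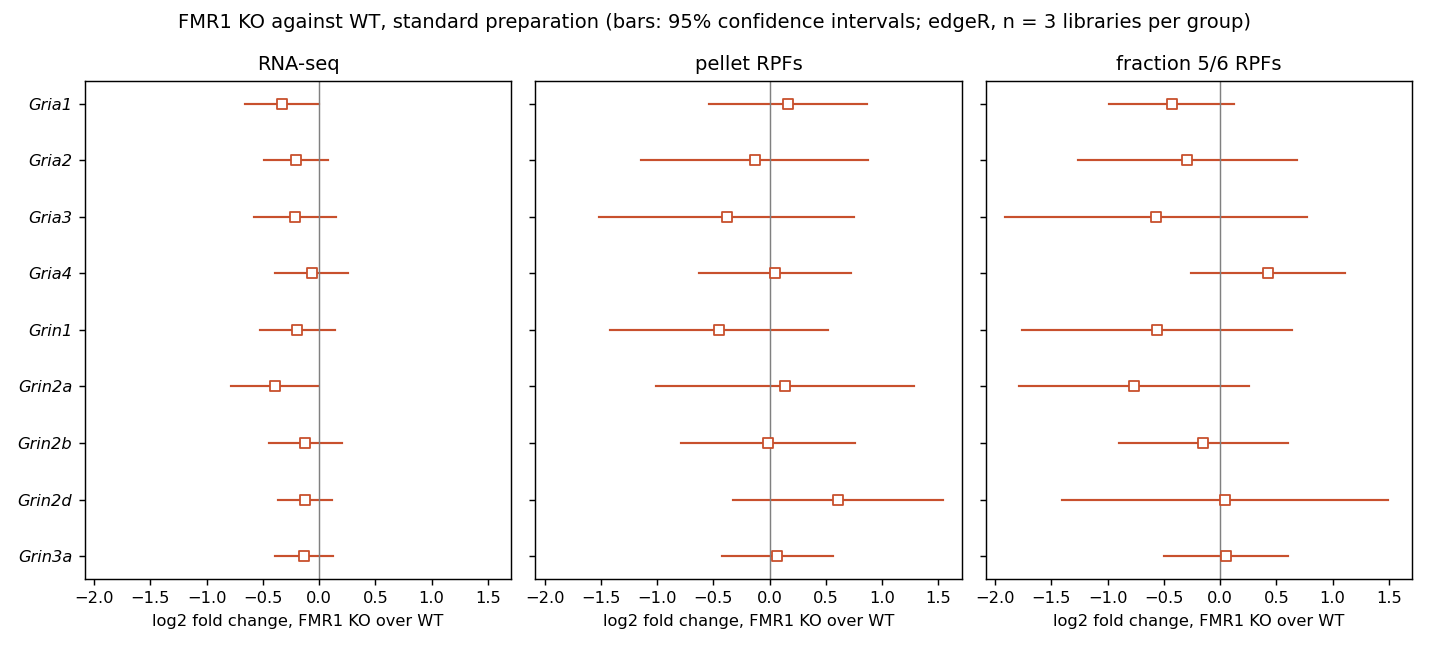
Log2 fold change of FMR1 KO over WT (x axes) for the 9 subunits in RNA-seq, pellet RPFs and fraction 5/6 RPFs of the standard preparation, with 95% confidence intervals from edgeR and 3 libraries per group. All 9 RNA-seq estimates lie between -0.40 and -0.07, the intervals of the RPF panels are wider, and open symbols mark that no subunit had an adjusted p under 0.05.

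The ratio of pellet RPF counts to RNA-seq counts, both TMM-scaled, differed widely between subunits. It was not corrected for untranslated exons, and coding sequence made up 17.9% of the exonic length of Grin2b and 24.5% of that of Grin2a. Over the 9 subunits the coding share and the log2 ratio had a Pearson's r of 0.02 in WT and 0.2 in the FMR1 KO. The part of untranslated exons in the ratios was not tested. Grin1 RPFs were raised in the pellet of both genotypes. Grin1 had 8.91, 9.09 and 9.92 TMM-scaled CPM in RNA-seq of WT brain and 21.6, 19.5 and 50.9 in WT pellet. Every pellet library was above every RNA-seq library, and replicate 3 of the pellet stood far above the other 2. The difference was 3.05-fold (log2 1.61 ± 0.36, SE, adjusted p = 0.0052). In the FMR1 KO Grin1 had 9.81, 6.56 and 8.18 in RNA-seq and 26.6, 16.4 and 23.7 in the pellet, again without overlap, a 2.46-fold difference (log2 1.30 ± 0.21, adjusted p = 0.0013).

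Grin2b and Grin2a, whose products set the kinetics of NMDA receptors, went the other way. Grin2b had 91.6, 68.0 and 61.5 TMM-scaled CPM in WT RNA-seq against 23.96, 20.7 and 46.4 in WT pellet, and 66.4, 63.9 and 73.1 against 35.2, 24.7 and 29.9 in the FMR1 KO. The pellet was at 0.38 times the RNA-seq level in WT (log2 -1.39 ± 0.32, adjusted p = 0.0062) and at 0.40 times in the FMR1 KO (log2 -1.32 ± 0.13, adjusted p = 0.00013). Grin2a had 14.3, 10.2 and 8.74 in WT RNA-seq against 2.12, 1.97 and 3.78 in WT pellet, from only 31 to 51 counts per pellet library. It was the lowest of the 9, at 0.22 times the RNA-seq level in WT (log2 -2.21 ± 0.30, adjusted p = 0.00041) and 0.30 times in the FMR1 KO (log2 -1.73 ± 0.36, adjusted p = 0.0045). With low nuclease Grin2a was higher in the pellet than in RNA-seq by 0.63 on the log2 scale in WT (adjusted p = 0.390). In the FMR1 KO it was lower by 2.13 (adjusted p = 0.020). Grin3a also fell, by 0.71 ± 0.15 in WT and by 0.57 ± 0.17 in the FMR1 KO on the log2 scale (adjusted p = 0.0048 and 0.020). The FMR1 KO call was lost without FMR1 KO RNA-seq replicate 1 or replicate 3 (adjusted p = 0.076 and 0.068), with all 12 groups in 1 fit (0.083) and in the low nuclease libraries (0.084).

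Among the AMPA subunits, Gria2 and Gria3 rose in the pellet of the FMR1 KO. Gria2 had 18.3, 17.5 and 17.9 TMM-scaled CPM in RNA-seq there and 40.0, 26.6 and 33.8 in the pellet, 1.69-fold (log2 0.76 ± 0.13, adjusted p = 0.0021). Gria3 had 4.07, 4.95 and 4.16 against 10.3, 7.38 and 9.09, 1.84-fold (log2 0.88 ± 0.15, adjusted p = 0.0019). Both calls were kept whichever library was left out, and both were lost with all 12 groups in 1 fit (adjusted p = 0.121 and 0.088). With low nuclease both were below 0 in the FMR1 KO, at -0.92 for Gria2 and -0.87 for Gria3 (adjusted p = 0.106 and 0.087). In the standard WT libraries the estimates were 0.74 ± 0.39 for Gria2 and 1.09 ± 0.44 for Gria3, but WT pellet replicate 3 had 62.7 for Gria2 and 21.3 for Gria3 against 20.7 to 27.4 and 6.88 to 7.12 in the other 2, and neither passed (adjusted p = 0.13 and 0.060). Without that library they were 0.12 and 0.35 (adjusted p = 0.589 and 0.152). Gria4 fell in the FMR1 KO by 0.35 ± 0.13 (adjusted p = 0.041), a call that was lost in 5 of the 6 fits that left out 1 library, and was at -0.42 ± 0.27 in WT. Gria1 was at -0.33 ± 0.28 in WT and 0.12 ± 0.14 in the FMR1 KO and did not pass in either. Grin1, Grin2a and Grin2b passed in both genotypes whichever library was left out. In all, 1 subunit of 9 rose and 3 fell in WT, and 3 rose and 4 fell in the FMR1 KO. Among all genes tested 31.1% rose and 34.3% fell in WT, and 31.9% rose and 35.2% fell in the FMR1 KO, so the counts themselves are near the background. Without WT pellet replicate 3, 1 of the 9 rose and 6 fell in WT, while over all genes 5042 rose and 5701 fell.

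The scaling matters for these values. By library size alone the typical gene was 2.13 lower on the log2 scale in WT pellet than in RNA-seq, and 2.33 lower in the FMR1 KO. On that scale Grin1 itself was at -0.45 in WT and -0.90 in the FMR1 KO, which is 1.68 and 1.43 above the typical gene, and Gria2 and Gria3 in the FMR1 KO were 0.88 and 0.99 above it. Grin2b was 1.30 below the typical gene in WT and 1.21 below in the FMR1 KO.

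**Figure D3:**
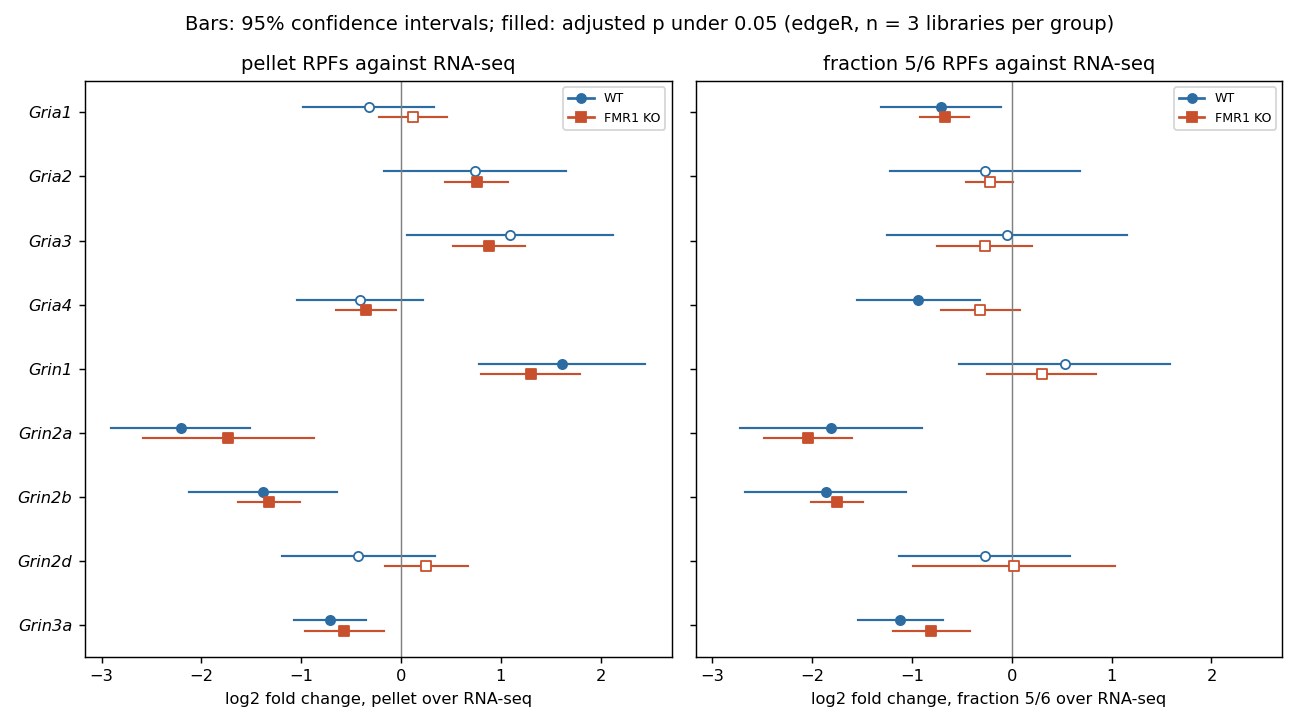
Log2 fold change of pellet RPFs over RNA-seq (left) and of fraction 5/6 RPFs over RNA-seq (right) for the 9 subunits in WT (circles) and FMR1 KO (squares) of the standard preparation, with 95% confidence intervals and filled symbols for an adjusted p under 0.05. Grin1 lies furthest to the right in the pellet, at 1.61 and 1.30, and Grin2b and Grin2a lie furthest to the left in all 4 comparisons.

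Ratios between subunits within 1 library do not depend on how libraries are scaled. Per base of coding sequence, Grin2b had 4.1 to 6.81 times the RNA-seq counts of Grin1 in WT and 4.48 to 6.44 times in the FMR1 KO. In the pellet it had 0.60 to 0.74 times those of Grin1 in WT and 0.84 to 0.99 times in the FMR1 KO. All 6 pellet libraries were below all 6 RNA-seq libraries. In fraction 5/6 the ratio was 0.85 to 1.34 in WT (1.15 to 1.34 without the library labelled replicate 3) and 0.99 to 2.0 in the FMR1 KO, also below every RNA-seq library. Gria2 had 0.84 to 0.96 times the counts of Gria1 in WT RNA-seq and 0.91 to 1.07 times in the FMR1 KO, against 1.36 to 2.15 and 1.47 to 1.52 times in the pellets. These ratios were chosen after their values were seen and are given without a test. They divide the counts of a whole gene by its coding length, so untranslated exons enter them. The Gria2 to Gria1 ratio of the low nuclease preparation was again higher in the pellets, at 1.36 to 1.56, than in RNA-seq, at 0.71 to 1.06. The Grin2b to Grin1 ratio there was 1.38 to 1.92 in the pellets and 1.8 to 9.55 in RNA-seq, which overlap.

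In fraction 5/6 none of the 9 subunits rose over RNA-seq, where 24.7% of genes did in WT and 29.8% in the FMR1 KO. In WT 5 fell, beside 31.3% of all genes, and in the FMR1 KO 4 fell, beside 33.2%. Grin2b had 15.9, 16.9 and 34.3 TMM-scaled CPM in WT fraction 5/6 and 21.6, 18.8 and 20.6 in that of the FMR1 KO, all below its RNA-seq libraries, and was lower by 1.86 ± 0.34 and 1.75 ± 0.11 (log2, adjusted p = 0.0035 and 1.7e-05). Grin2a was lower by 1.81 ± 0.38 and 2.04 ± 0.19, Grin3a by 1.12 ± 0.18 and 0.81 ± 0.17, and Gria1 by 0.71 ± 0.25 and 0.67 ± 0.10. The call of Gria1 in WT (adjusted p = 0.049) was lost in 5 of the 6 fits that left out 1 library, and without WT fraction 5/6 replicate 1 or WT RNA-seq replicate 1 the subunits called in WT came to 3. Gria4 fell in WT alone, by 0.94 ± 0.26, and the difference between genotypes in this ratio was not tested. Grin1, the subunit that stood out in the pellet, was at 0.53 ± 0.44 in WT and 0.30 ± 0.23 in the FMR1 KO and did not pass. Without the library labelled WT fraction 5/6 replicate 3, Gria2 and Gria3 were lower as well in WT, by 0.80 ± 0.19 and 0.87 ± 0.24 (adjusted p = 0.011 and 0.021), and Grin1 was at -0.15 ± 0.14 in place of 0.53. The subunits already called were then lower by 2.23 ± 0.21 (Grin2b), 1.63 ± 0.41 (Grin2a), 1.2 ± 0.15 (Grin3a), 1.15 ± 0.20 (Gria4) and 0.90 ± 0.20 (Gria1).

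Set directly against fraction 5/6, the pellet of the FMR1 KO held more RPFs of 4 of the 9 subunits, and 9.09% of all genes were higher and 2.35% lower in that comparison. Gria2 had 40.0, 26.6 and 33.8 TMM-scaled CPM in the pellet and 14.4, 16.9 and 15.0 in fraction 5/6, a 2.12-fold difference (log2 1.08 ± 0.17, adjusted p = 0.011). Gria3 was 2.38-fold higher (log2 1.25 ± 0.24, adjusted p = 0.022), with 10.3, 7.38 and 9.09 against 2.67, 4.19 and 4.12. Gria1, the subunit whose trafficking underlies much of synaptic strengthening, had 26.8, 17.7 and 23.3 against 11.9, 12.45 and 11.3, 1.86-fold (log2 0.90 ± 0.17, adjusted p = 0.021). Grin1 had 26.6, 16.4 and 23.7 against 7.12, 12.5 and 10.7, 2.15-fold (log2 1.11 ± 0.26, adjusted p = 0.044). For these 4 genes the pellet libraries did not overlap with those of fraction 5/6. The other 5 were at 0.06 (Gria4) to 0.53 (Grin2b, adjusted p = 0.066), and the median over the 9 was 0.53 beside -0.04 over all genes. These calls rest on few libraries. Leaving out 1 library left 0 to 5 of the 9 called, with 0 left without FMR1 KO fraction 5/6 replicate 1 and 1 left without FMR1 KO pellet replicate 1 or replicate 3, and all estimates of the 4 genes stayed above 0. By library size alone, which puts the typical gene 0.60 lower in the pellet, 0 of the 9 passed. With all 12 groups in 1 fit 0 passed as well, and 1 did with a block for replicate number. The summed CPM of the neuronal markers was 5341 to 8095 in the pellet of the FMR1 KO and 6988 to 11313 in fraction 5/6.

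In WT the same comparison called 0 of the 9 subunits, where 0.0153% of genes were higher and 0.00765% lower. Gria2 was at 0.96 ± 0.58, Gria3 at 1.10 ± 0.70 and Grin1 at 1.04 ± 0.60 on the log2 scale. The library labelled WT fraction 5/6 replicate 3 had 32.1 TMM-scaled CPM of Gria2, 10.3 of Gria3 and 26.8 of Grin1, against 11.2 to 13.1, 2.66 to 3.19 and 7.90 to 9.71 in the other 2 libraries of that group. Without it 7.76% of genes were higher and 1.86% lower, and the 3 estimates were 1.61 ± 0.53, 2.02 ± 0.65 and 1.81 ± 0.51, with adjusted p of 0.132, 0.125 and 0.097. The low nuclease libraries, which are other libraries of the same design, gave a call in WT for 8 of the 9, beside 14.3% of genes higher and 8.56% lower. There Gria2 was higher in the pellet by 1.53 ± 0.21 (adjusted p = 0.0097), Gria3 by 1.67 ± 0.25 (0.011), Grin1 by 2.09 ± 0.25 (0.0081), Grin2b by 1.13 ± 0.25 (0.027), Gria1 by 1.02 ± 0.25 (0.035) and Grin3a by 0.68 ± 0.17 (0.039). Gria2 had 99.4, 107.0 and 148.4 TMM-scaled CPM in that WT pellet and 32.2, 47.1 and 43.6 in fraction 5/6. With low nuclease in the FMR1 KO, Gria2 passed, at 1.40 ± 0.36 (adjusted p = 0.045), and Gria3, Grin1, Gria1 and Grin2b were at 1.36, 1.23, 0.82 and 0.82 without passing, in a comparison where 8.79% of genes were higher and 11.7% lower. Calls of Grin2d and Grin2a in the low nuclease libraries are taken up next.

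**Figure D4:**
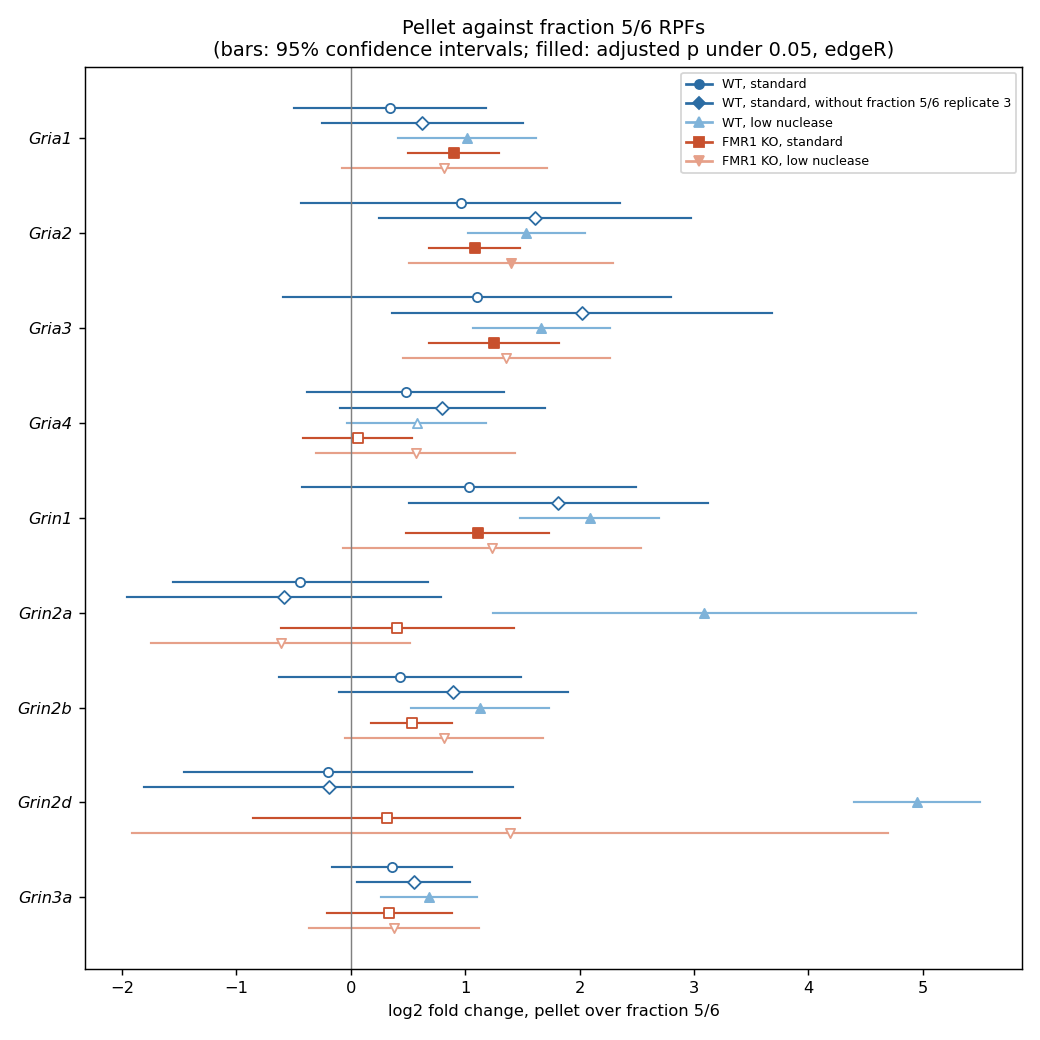
Log2 fold change of pellet over fraction 5/6 RPFs (x axis) for the 9 subunits, with 95% confidence intervals, in WT and FMR1 KO of the standard and low nuclease preparations and in WT without the library labelled fraction 5/6 replicate 3, filled where the adjusted p was under 0.05. All subunits but Grin2a and Grin2d lie right of 0 in all 5 fits. In the WT low nuclease fit Grin2d and Grin2a lie apart from their other estimates, at 4.95 and 3.09.

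The Grin2d counts did not behave as those of the other subunits. In the low nuclease pellets Grin2d had 913, 851 and 1135 CPM without Cdk8 in WT and 1026, 1088 and 478 in the FMR1 KO, whereas it had 10.2 to 28.0 CPM in the standard pellets and 35.1 to 45.0 in standard RNA-seq. In these 6 pellet libraries its counts were nearly those of 2 other genes, Sec1 and Ntn5, which code for a fucosyltransferase and a netrin. FMR1 KO pellet replicate 1 had 27469 counts of Grin2d, 27390 of Sec1 and 27390 of Ntn5. WT pellet replicate 3 had 40554, 39502 and 39496. Sec1 counts came to 96.8% to 99.7% of Grin2d counts in the low nuclease pellets, and the gene next closest to Grin2d after Sec1 and Ntn5, Ckb, differed from it by up to 40.2% in these 6 libraries. Low nuclease fraction 5/6 replicate 1 of the FMR1 KO was alike, with 42157, 41869 and 41866, while the other 5 libraries of that fraction had 712 to 2538 Grin2d counts. Sec1 (chromosome 7, 45677686 to 45694402, minus strand) and Ntn5 (45684022 to 45694556, plus strand) overlap over 519 exonic bases. Grin2d starts 137327 bases beyond them, shares no exonic base with Sec1, and the longest run of bases its transcripts have in common with those of Sec1, on either strand, is 12 bases long, and 13 bases with those of Ntn5. In RNA-seq Sec1 was at 1.0% of Grin2d counts or less in all 12 libraries.

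Sec1 counts were also present in the standard preparation, at a lower share of Grin2d counts than in the low nuclease pellets. Sec1 came to 25.3%, 53.6% and 49.9% of Grin2d counts in the 3 FMR1 KO pellet libraries and to 0.9%, 2.4% and 35.7% in the WT ones, and to between 0% and 68.9% in fraction 5/6. With the Sec1 count taken from the Grin2d count of each library, a step added after these values were seen, 10.3, 9.98 and 14.2 CPM remained in WT pellet and 13.2, 8.62 and 14.0 in that of the FMR1 KO. Grin2d was then lower in the pellet than in RNA-seq in both genotypes, by 0.74 in WT (adjusted p = 0.011) and by 0.60 in the FMR1 KO (adjusted p = 0.0025), in place of -0.43 ± 0.33 and 0.25 ± 0.17. In fraction 5/6 of the FMR1 KO it was lower by 0.75 (adjusted p = 0.0014). Why the 3 genes have nearly equal counts was not tested, nor whether Sec1 counts are part of the Grin2d counts. Grin2d values with and without this step are uncertain.

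**Figure D5:**
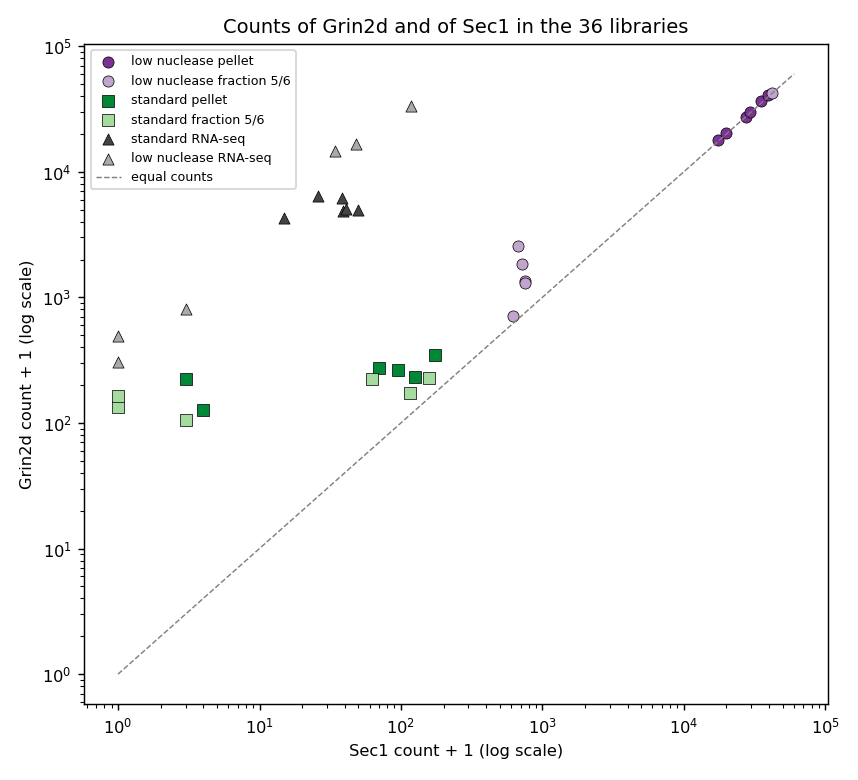
Counts of Grin2d (y axis, count plus 1, log scale) against counts of Sec1 (x axis, count plus 1, log scale) in all 36 libraries, by library type and preparation, with a dashed line where both are equal. The 6 low nuclease pellet libraries and 1 low nuclease fraction 5/6 library lie close to the line at the upper right, and the RNA-seq libraries lie far above it.

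Grin2a had a departure of its own in the low nuclease preparation. Its pellet libraries had 184.9, 128.9 and 26.8 CPM without Cdk8 in WT and 7.85, 30.2 and 16.8 in the FMR1 KO. The first 2 WT libraries stood apart from the rest. The cause was not tested.

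Between preparations, all 9 subunits were lower in the standard pellet than in the low nuclease pellet in both genotypes, 7 of them past the threshold in WT and 2 in the FMR1 KO. Of all genes, 23.8% were lower and 15.1% higher in WT, and 9.35% lower and 7.34% higher in the FMR1 KO. Grin2b had 27.0, 26.7 and 50.5 CPM without Cdk8 in the standard WT pellet and 283, 266 and 312 in the low nuclease one, without overlap, and the log2 difference was -2.49 ± 0.33 (adjusted p = 0.0043). In the FMR1 KO it was -1.95 ± 0.30 (adjusted p = 0.014). Gria1, Gria2, Gria4 and Grin3a were lower in WT by 1.67 ± 0.31, 1.34 ± 0.43, 1.46 ± 0.33 and 1.55 ± 0.17, with adjusted p of 0.011, 0.0497, 0.018 and 0.0028. The call of Gria2 in WT was lost in 5 of the 6 fits that left out 1 library, all but that without WT pellet replicate 3, and that of Gria4 was lost without WT pellet replicate 1 or replicate 2. In the FMR1 KO the same 4 lay between -0.97 and -1.03 and did not pass (adjusted p of 0.052 to 0.076), and without FMR1 KO low nuclease pellet replicate 1, whose levels were the lowest of its group for 8 of the 9 subunits, all 9 passed. Without FMR1 KO pellet replicate 1 or replicate 3, 1 passed, which was Grin2d. The call of Grin2b was lost in these fits (adjusted p of up to 0.060). The Grin2d calls rest on counts nearly equal to those of Sec1, and Grin2d less Sec1 was at -0.56 in WT (adjusted p = 0.112) and 0.13 in the FMR1 KO (adjusted p = 0.904). This leaves Grin2b, with the losses just given, as the 1 call in the FMR1 KO. The nuclease treatment, the MgCl2 concentration and the making of the libraries differ together between the preparations and cannot be told apart.

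Against RNA-seq, the rise of Grin1 in the pellet was seen in the standard preparation and not in the low nuclease one, as was that of Gria2 and Gria3 in the FMR1 KO. In the low nuclease libraries Grin1 was lower in the pellet than in RNA-seq, by 1.204 in WT (adjusted p = 0.0084) and by 1.09 in the FMR1 KO (adjusted p = 0.175). RNA-seq itself differed between preparations. Grin1 had 24.4 to 28.7 CPM without Cdk8 in the standard WT RNA-seq libraries and 254, 54.7 and 448 in the low nuclease ones, and Grin2b had 178 to 251 against 692, 246 and 1275. In TMM-scaled CPM the 3 low nuclease WT libraries had 142.9, 217.1 and 244.9 of Grin1. Grin2b was lower in the pellet than in RNA-seq in both preparations and genotypes, by 1.69 in WT and 2.12 in the FMR1 KO with low nuclease (adjusted p = 0.0060 and 0.0085). Levels from the 2 preparations can be compared only with this difference in mind.

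Peaks, the places on an mRNA where RPF coverage piles up, were deposited for the 12 RPF libraries of the standard preparation, with 11389 to 36435 peaks in each. None lay on any of the 60 transcripts of the 9 subunits, in any of the 12 libraries. No comparison of peaks between groups could therefore be made. Of all protein-coding genes with a count between that of the lowest and the highest subunit in the same library, 9.01% to 31.6% had at least 1 peak. The subunit with the highest density in a library had 4.31 to 29.0 counts per 100 coding bases, and the median gene with a peak had 35.3 to 54.2. The part of depth in the absence of peaks on the subunits was not tested. Of the 42 genes in the lists of other receptor genes described next, 15 (35.7%) had a peak in at least 1 library and 5 (11.9%) had one in all 12, near the 37.6% and 9.95% of all protein-coding genes of the table. These 5, named after their values were seen, were Nsf, whose product binds Gria2, with 4 to 8 peaks in each library, Dlg4, which encodes PSD-95, and Cnih2, an AMPA receptor auxiliary subunit, with 1 to 4 each, Prrt1 with 3 to 9 and Epb41l1 with 3 to 28.

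Other genes of the same receptors were taken as lists. None of the 9 other ionotropic subunits, of which 7 had enough counts to be tested in the pellet, the 16 AMPA receptor auxiliary subunits, the 14 trafficking and anchoring genes or the 3 RNA editing enzymes passed between genotypes in RNA-seq or in the pellet. Of the 16 auxiliary subunits, which shape gating and delivery of AMPA receptors, 14 fell in WT pellet against RNA-seq and 1 rose, and 14 fell in the FMR1 KO, beside 34.3% of all genes that fell in WT and 35.2% in the FMR1 KO. Their median was -1.75 in WT and -1.58 in the FMR1 KO, beside -0.11 and -0.07 over all genes. Cnih2 was lowest at -4.60 ± 0.21 and Cacng7 next at -4.44 ± 0.12 in WT, and Prrt1 rose by 0.75 ± 0.13. Of the 14 trafficking and anchoring genes 7 rose and 4 fell in WT, beside 31.1% and 34.3% of all genes. Nsf rose by 1.95 ± 0.16 and Pick1, which binds the tail of Gria2, by 1.40 ± 0.13, while Neto1 and Neto2, auxiliary subunits of kainate receptors, were at -2.69 ± 0.14 and -2.46 ± 0.23. Of the 9 other ionotropic subunits 6 fell in WT and none rose, whereas 3 fell and 1, Grik1, rose in the FMR1 KO, with medians of -1.14 and -0.215, and the difference between genotypes was not called for any. In WT the kainate subunit Grik5 was at -2.94 ± 0.20 and Grik4 at -1.85 ± 0.29. Among the editing enzymes Adar rose by 1.42 ± 0.17 and Adarb1, which edits the Gria2 mRNA, fell by 0.57 ± 0.12. In the FMR1 KO pellet against fraction 5/6, where 9.09% of all genes were higher, 2 of the 14 trafficking genes were (Grip2 at 0.66 ± 0.16 and Dlg1 at 0.51 ± 0.13, adjusted p = 0.0495 and 0.0496) and none of the 16 auxiliary subunits.

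Across the 12 group means of all libraries, the genes whose centred log2 CPM followed the mean profile of the AMPA subunits most closely, among 16124 ranked, were Ntrk2 (Pearson's r = 0.994), Plppr4 (0.991) and Grm5 (0.990). Those closest to the NMDA profile were Pcdhb11 (0.981), Scd2 (0.977) and Ptprr (0.976). That profile includes Grin2d without the Sec1 step and Grin2a, whose low nuclease pellet levels stood apart. Of the subunits themselves, Gria2 was closest to the AMPA profile at 0.984 and Grin2d furthest at 0.756. The AMPA profile is the mean of the Gria genes, so the value of Gria2 is against a mean that holds it. The 12 means share libraries, library type and depth, and these values describe likeness only.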

How the data were processed

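Whole brains of WT and FMR1 KO mice gave 36 libraries, 24 of ribosome protected fragments and 12 of RNA-seq. Per the submitters' processing notes and the study's methods, the authors trimmed reads with Cutadapt 2.10, removed ribosomal and other noncoding RNA with Bowtie2 2.3.5, aligned with STAR 2.7.8a to GRCm38 (Ensembl), marked duplicates with Picard, removed them with SAMtools 1.19.2 and counted with featureCounts 2.2.0. The deposited table holds whole-number counts per gene, not normalized. Barcodes told samples apart, not molecules, so amplified copies cannot be separated from molecules by them, and the deposited counts of Cdk8 in RPF libraries exceed the number of bases of its gene. The deposited peak files hold, for each of 12 libraries, intervals on transcripts with a height, read here as RPF coverage signal that is not scaled between libraries, and peaks were called per library.

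Of 16614 genes, 16587 were matched to GENCODE M21 and protein-coding genes were tested. Rows with no symbol held at most 0.607% of a library's counts. Comparisons between groups used edgeR 4.0.16 (quasi-likelihood test, TMM scaling, filterByExpr filter, R 4.3.3), with the libraries of the compared groups alone and Benjamini-Hochberg adjustment over all genes tested. A call is an adjusted p under 0.05, and intervals are 95%. CPM without Cdk8 leaves Cdk8 out of the library total, and CPM per kilobase divides it by the coding or exonic length of M21. Plots were made with matplotlib 3.10.9 in Python 3.11.15. The edgeR fit was tested on simulated counts first, for some of the comparisons only. The alternatives named below were not tested in this way, and no result of the simulation is given here.

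Alternatives were library size alone, DESeq2 1.42.0, no filter, no Cdk8, all genes of the table, the replicate number as a block, all 12 groups in 1 fit, the low nuclease libraries and each library left out. Grin2d less Sec1 was chosen after seeing the data. The members, the gene lists and the tests were chosen with earlier results of these data known. The genes named are the 9 subunits, Fmr1 and Cdk8, at most the 2 largest called rises and falls of each other list, and the 3 genes most like each receptor's profile, beside those said to have been named later. Genes of the likeness ranking had a mean count of at least 10, and 0.5 CPM was added before logs. The 3 libraries of a group limit the precision, together with the low RPF counts of the subunits. The low nuclease libraries were used as an alternative and for the comparison of preparations. No protein sequences were used here.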

Additional observations from a re-analysis of the deposited data

Results flagged for a closer look

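Grin2d counts stood out in the low nuclease pellets, which enter the report beside the standard libraries. The mean was 966 CPM without Cdk8 in WT and 864 CPM in the FMR1 KO, above the level of every standard library. Sec1 counts came to at least 97.3% of Grin2d counts in WT and 96.8% in the FMR1 KO. Grin2a was also high there, at 184.9 CPM in the highest WT library. These libraries were singled out because their level exceeded that of the standard preparation, and the cause was not tested.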

How the results depend on the processing

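No subunit was called between genotypes under any alternative run, and leaving out 1 library gave 0 to 0 calls in each of these 5 comparisons. Leaving out 1 library gave 4 to 7 calls for WT pellet against RNA-seq, 5 to 8 for the FMR1 KO, 3 to 7 for WT fraction 5/6 against RNA-seq, 4 to 6 for the FMR1 KO, 0 to 0 for WT pellet against fraction 5/6, 0 to 5 for the FMR1 KO, 5 to 9 for the standard against the low nuclease pellet in WT and 1 to 9 in the FMR1 KO. By library size alone the calls were 8 for WT pellet against RNA-seq (421 genes higher and 14180 lower), 9 for fraction 5/6 against RNA-seq in each genotype (434 and 13530 in WT, 471 and 12469 in the FMR1 KO), 0 for FMR1 KO pellet against fraction 5/6 (135 and 100) and 9 for the FMR1 KO preparations (261 and 13102). With all 12 groups in 1 fit they were 3 for FMR1 KO pellet against RNA-seq, 0 for FMR1 KO pellet against fraction 5/6 and 6 for the FMR1 KO preparations. In the low nuclease libraries they were 4 for FMR1 KO pellet against RNA-seq, 8 for fraction 5/6 against RNA-seq in each genotype, 8 for WT pellet against fraction 5/6 and 1 for the FMR1 KO. For the FMR1 KO preparations DESeq2 gave 9 and Grin2d less Sec1 gave 1. Of the order of levels in WT pellet, 2 of 9 places were the same per exonic and per coding length.

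Signs of values called in at least 1 of the 2 fits compared turned by library size alone in pellet against RNA-seq for Gria3 (-0.97), Grin1 (-0.45) and Gria2 (-1.33) in WT and Gria3 (-1.34), Grin2d (-1.99), Gria1 (-2.09), Grin1 (-0.90) and Gria2 (-1.45) in the FMR1 KO. In fraction 5/6 against RNA-seq they turned for Grin1 in WT (-1.51) and for Grin2d (-1.44) and Grin1 (-1.45) in the FMR1 KO. In the low nuclease libraries they turned in pellet against RNA-seq for Grin2d (2.85), Grin1 (-1.20) and Grin2a (0.63) in WT and Gria3 (-0.87), Gria1 (-1.50), Grin1 (-1.09) and Gria2 (-0.92) in the FMR1 KO, in fraction 5/6 against RNA-seq for Grin1 in WT (-3.21) and the FMR1 KO (-2.33), and in WT pellet against fraction 5/6 for Grin2d (4.95) and Grin2a (3.09). Gria2 (-0.50) and Gria3 (-0.33), called in neither fit, also turned in WT pellet against RNA-seq with low nuclease. Grin2d less Sec1 turned Grin2d in the FMR1 KO in pellet (-0.60) and fraction 5/6 (-0.75) against RNA-seq and between preparations (0.13). Leaving out 1 library put Grin2d in FMR1 KO fraction 5/6 against RNA-seq between -0.78 (without fraction 5/6 replicate 3) and 0.32. Library size alone moves all genes together, and the cause of the other turns was not tested.

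Libraries with the same replicate number correlated at -0.121 to 0.253 in their deviations from group means, and those with different numbers at -0.275 to 0.18. In 0 of 11 group pairs did every same-numbered pair pass 0.1, a cutoff that cannot show that such libraries are independent. Between pellet and fraction 5/6, same-numbered libraries were at 0.099, 0.007 and 0.253 in WT and at 0.023, 0.165 and 0.244 in the FMR1 KO. Those with different numbers were at -0.248 to 0.174 in WT and at -0.244 to 0.108 in the FMR1 KO. Whether same-numbered libraries share a preparation was not tested. With the replicate number as a block the calls were 1 in place of 4 for FMR1 KO pellet against fraction 5/6, 6 in place of 7 for FMR1 KO pellet against RNA-seq, 4 in place of 5 for WT fraction 5/6 against RNA-seq and 9 in place of 7 for the WT preparations, and unchanged in number in the other comparisons. Of 117 pairs of a subunit and a comparison, 33 were called and 68 were called under at least 1 setting. RPF counts of Grin2a, 21 to 54 in a standard library, limit what can be said of it.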
